A study of Mus musculus with 9 samples.

Results

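The respiratory chain of the inner mitochondrial membrane is built from proteins of 2 genomes, and its genes were followed here across sorted T cells, dendritic cells (DC) and a population that the submitters named TDC. The set was chosen by symbol alone: every row of the count table that starts with Nduf, Uqcr, Cox4, Cox5, Cox6, Cox7, Cox8 or Atp5, the genes Sdha, Sdhb, Sdhc, Sdhd and Cyc1, and the rows that start with mt-Nd, mt-Co, mt-Cytb or mt-Atp, without the 7 pseudogene rows marked -ps. It held 107 of the 50508 rows, 94 of them nuclear and 13 mitochondrial. All 9 libraries came from spleens of untreated, naive mice of 8 weeks of age that were homozygous for Zbtb46-GFP, a reporter at a locus used by conventional DC, so no group lacked the reporter. Conventional T cells, conventional DC and TDC each had 3 libraries, and a library pooled 5 mice (replicate 1) or 6 mice (replicates 2 and 3). Descriptions of the libraries carry a code that T cells, DC and TDC of a replicate number share, but no label says whether it marks the same mice, a sort or a day. Neither the sort gates nor the meaning of the name TDC was stated in the labels. Each library is a pool, so p-values below measure the spread between pools.

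Complex I (NADH dehydrogenase) and complex II (succinate dehydrogenase) pass electrons from nutrients to ubiquinone, complex III hands them to cytochrome c, and complex IV (cytochrome c oxidase) hands them to oxygen. Complexes I, III and IV pump protons, and complex V (ATP synthase) uses the resulting gradient to make ATP. The mitochondrial genome encodes core subunits of all of these except complex II, whose 4 subunits are nuclear, and its genes are transcribed as long precursors that are cut and polyadenylated separately from nuclear transcripts.

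By class, the 13 mitochondrial genes comprised 7 of complex I, 1 of complex III (mt-Cytb), 3 of complex IV and 2 of complex V. The nuclear genes comprised 7 core and 29 accessory subunits of complex I, 4 of complex II, 9 of complex III, 20 of complex IV with its tissue isoforms and a supercomplex factor, 17 of complex V with its relatives, and 8 Ndufaf assembly factors of complex I. Of the 94 nuclear genes 91 had a read, 87 had reads in every library and 85 had at least 10 reads in every library. Of the 13 mitochondrial genes 8 had a read, and 7 had at least 10 reads in every library. After a filter on low counts, 89 nuclear and 8 mitochondrial genes were tested.

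Assigned reads numbered 10986544 to 18071425 in a T cell library, 14973484 to 25676640 in a DC library and 14594850 to 22677130 in a TDC library. The summed level of 6 T cell markers was 5082 to 7976 CPM in T cells, 0.775 to 3.90 in DC (Cd3e and Cd3g at 0) and 50.6 to 169.7 in TDC. CPM here are read counts scaled to library size by TMM, a method that sets libraries to a common level over most genes. The 7 DC markers summed to 9.99 to 32.4 CPM in T cells (Cd209a at 0), 43940 to 72880 in DC and 8281 to 16590 in TDC, and the 7 macrophage markers to at most 0.633 CPM in T cells (C1qc, Adgre1 and Cd5l at 0), 146 to 274 in DC and 29980 to 53170 in TDC. Thus the T cell and DC labels matched their defining markers, while TDC libraries carried all 7 macrophage markers at the highest sums and all 6 T cell and 7 DC markers at lower sums than the cells that define them. Sums of the 6 erythroid markers were 0.494 to 1.19 CPM in T cells (Hbb-bt at 0), 1.49 to 22.4 in DC and 597 to 2070 in TDC. B cell markers summed to 14.1 to 32.3, 207 to 279 and 68.3 to 129 CPM in T cells, DC and TDC, and platelet markers to 0 to 1.69 (Pf4 and Ppbp at 0), 0 to 3.48 (Ppbp at 0) and 12.2 to 18.5 CPM. Neutrophil markers reached at most 0.0988, 2.23 and 65.2 CPM (Ly6g at 0 in DC and TDC), natural killer cell markers 12.5, 4.75 and 0.223 CPM (Ncr1 at 0 in TDC) and plasma cell markers 2.68, 3.04 and 8.44 CPM. The part of these cell types in the results below was not tested, and in bulk libraries fewer cells of a type and less RNA per cell cannot be told apart.

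The 13 mitochondrial genes fell into those with many reads and those with none, and their sequences are shown first because the counts turn on them. No read was assigned in any of the 9 libraries to mt-Co2, mt-Co3, mt-Atp6, mt-Atp8 or mt-Nd4l, whereas mt-Cytb had 15261 to 110152 reads in a library and mt-Co1 15147 to 68640. With 3 reads as the limit that a count of 0 allows, this bounds an assigned level at 0.115 to 0.269 CPM in a library, for counting error only. In the mouse annotation GENCODE M21 (GRCm38), an insertion of mitochondrial sequence at chr1:24611535-24616197 (minus strand, 4663 bases) carries 7 annotated copies of mitochondrial genes. The copies Gm28661 of mt-Co2, Gm10925 of mt-Atp6, Gm28437 of mt-Co3 and Gm10222 of mt-Nd4l were identical to their genes over 100% of the aligned bases. The 4 genes lie at chrM:7013-7696, chrM:7927-8607, chrM:8607-9390 and chrM:9877-10173, all on the plus strand. Their last 90 aligned bases, each 5′ to 3′ and each identical in gene and copy, were:
mt-Co2 and Gm28661: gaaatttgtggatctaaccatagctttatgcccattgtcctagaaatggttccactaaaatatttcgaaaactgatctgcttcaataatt
mt-Atp6 and Gm10925: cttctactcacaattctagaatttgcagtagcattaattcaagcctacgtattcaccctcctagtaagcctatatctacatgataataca
mt-Co3 and Gm28437: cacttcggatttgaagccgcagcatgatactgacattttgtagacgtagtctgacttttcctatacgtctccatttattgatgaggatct
mt-Nd4l and Gm10222: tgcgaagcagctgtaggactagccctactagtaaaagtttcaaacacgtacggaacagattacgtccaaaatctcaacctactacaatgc

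As a measure of sharing, the percentage of all 50-base words of a gene that also occur in another annotated gene was 100% for mt-Co2, 99.5% for mt-Atp6, 99.9% for mt-Co3 and 98.8% for mt-Nd4l. It was 0% for mt-Nd1 (chrM:2751-3707), mt-Nd6 (chrM:13552-14070, minus strand) and mt-Cytb (chrM:14145-15288), all of which had reads in every library. The fifth gene at 0 reads, mt-Atp8 (chrM:7766-7969), shared 0% of such words with an annotated gene, and 43 of its 204 bases overlap mt-Atp6. It lies between mt-Co2 and mt-Atp6, whose copies on the insertion are at chr1:24614885-24615565 and chr1:24613974-24614651. No annotated copy lies between these, and the search covered annotated genes only, so 0% does not show that the insertion lacks mt-Atp8 sequence. The copies took hardly any of the missing reads, with 1 read in all for Gm28661, 5 for Gm10925, 4 for Gm28437 and 8 for Gm10222. No source used here states how reads that fit several places were counted, so the 5 zeros are counts of assigned reads and no measure of these transcripts.

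A shared 3′ end did not always go with an absence of reads. The last 300 bases of mt-Co1 (chrM:5328-6872) shared 100% of their 50-base words with other annotated genes, its whole length 51.1%, and the gene still had 315006 reads in all while its copy Gm29216 had 9. For mt-Nd4 (chrM:10167-11544) the whole gene shared 62.2% and its last 300 bases 0%, with 61714 reads in all. For mt-Nd2 (chrM:3914-4951) these shares were 8.19% and 31.9%, and for mt-Nd5 (chrM:11742-13565) 7.61% and 1.99%. The ends of mt-Co1, which is shared, of mt-Cytb, which is not, and of mt-Nd2 with its copy Gm13339, where capitals mark the 3 bases that differ, show the range:
mt-Co1 and Gm29216: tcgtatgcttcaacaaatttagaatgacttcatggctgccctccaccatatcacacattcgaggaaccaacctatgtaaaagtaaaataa
mt-Cytb: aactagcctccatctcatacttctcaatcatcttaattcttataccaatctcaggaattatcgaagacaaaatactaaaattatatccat
mt-Nd2: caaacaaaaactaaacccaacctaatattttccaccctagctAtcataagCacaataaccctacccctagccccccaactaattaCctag
Gm13339: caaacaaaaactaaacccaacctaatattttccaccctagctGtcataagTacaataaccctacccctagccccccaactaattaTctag

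A further gene, mt-Nd3 (chrM:9459-9806), stood between these groups. It had 90, 0 and 30 reads in T cell replicates 1, 2 and 3, 77, 0 and 8 reads in the DC replicates and 15, 0 and 20 reads in the TDC replicates. The library at 0 was replicate 2 in all 3 populations, although those libraries held 16467028 to 22677130 reads. Its copy Gm28438 had 172, 209 and 54 reads in T cells, 123, 153 and 18 in DC and 145, 49 and 37 in TDC, so it was counted in replicate 2 as well. Gene and copy were 99.7% identical and differed by 1 substitution, T3C, with position 3 counted from the 5′ end of mt-Nd3. The first 90 bases, with that base in capitals, were:
mt-Nd3: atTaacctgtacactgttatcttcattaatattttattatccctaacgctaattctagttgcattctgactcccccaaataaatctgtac
Gm28438: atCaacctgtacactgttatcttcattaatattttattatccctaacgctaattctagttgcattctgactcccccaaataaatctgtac
Among all 50508 rows, mt-Nd3 was the only one with at least 8 reads in every library of the other replicate numbers and at most 1 read in each library of a single number, a rule chosen after its values were seen. Its level is therefore left out of the comparisons below except where all 8 tested mitochondrial genes are counted.

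**Figure D1:**
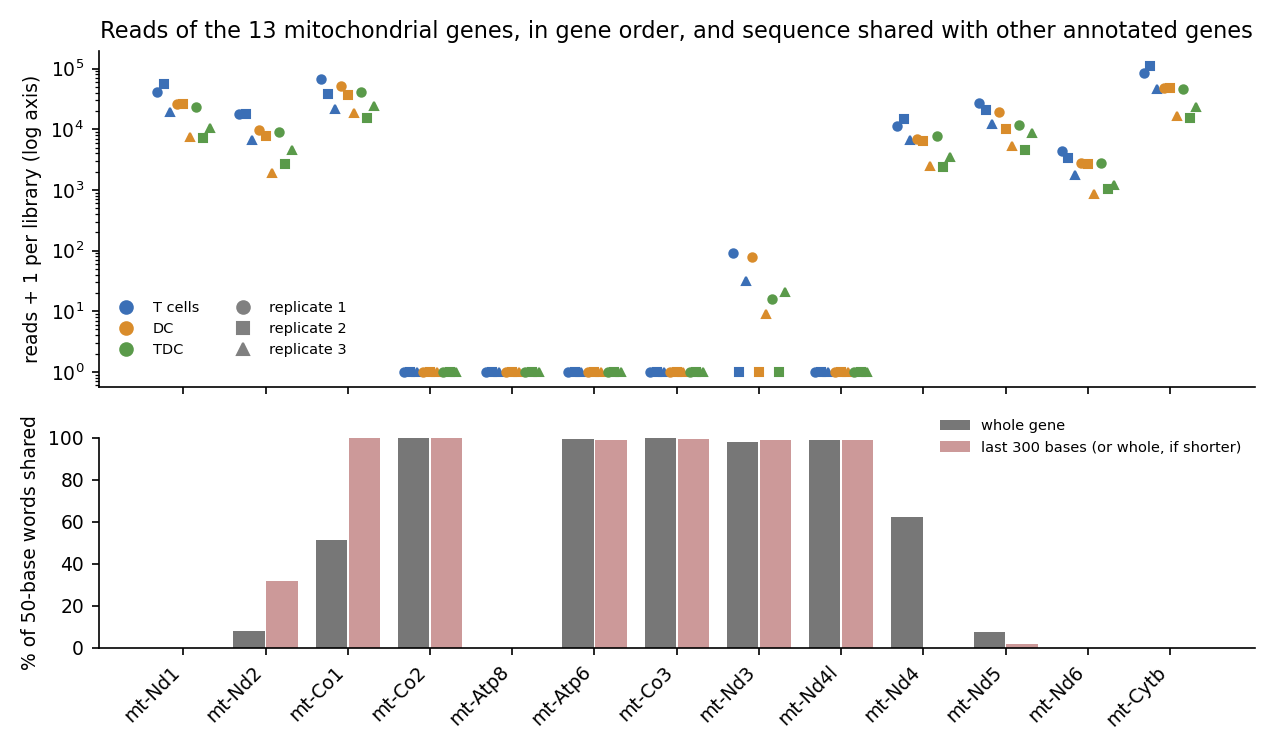
Upper panel: reads + 1 in each library (log axis) of the 13 mitochondrial genes in the order of the mitochondrial genome, coloured by population and shaped by replicate number. Lower panel: the percentage of 50-base words that a gene shares with other annotated genes, over the whole gene and over its last 300 bases. The 5 genes without a read lie at 1 on the upper axis, and mt-Nd3 lies at 1 in every replicate 2 library.

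Reads of the mitochondrial genes took a larger mean share of the T cell libraries than of the others, but the libraries overlapped. The share was 2.32%, 1.43% and 0.763% of assigned reads in T cell replicates 1 to 3 (mean 1.504% ± 0.779, SD, n = 3), 0.636%, 0.836% and 0.354% in DC (0.609% ± 0.242) and 0.929%, 0.213% and 0.517% in TDC (0.553% ± 0.360). T cell replicate 3 thus lay below DC replicate 2 and TDC replicate 1, while within each of the 3 replicate numbers the T cell library lay above the DC and the TDC library. The nuclear genes took 1.38%, 1.87% and 1.52% in T cells (1.59% ± 0.255), 0.922%, 1.36% and 0.773% in DC (1.02% ± 0.308) and 1.19%, 0.701% and 0.793% in TDC (0.895% ± 0.260). Here every T cell library lay above every DC and TDC library, with T cell replicate 1 and DC replicate 2 almost level. On the TMM scale the same sums overlapped, at 10678 to 16733 CPM in T cells, 6898 to 15650 in DC and 8621 to 16397 in TDC.

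The ratio of mitochondrial to nuclear reads, which does not depend on the scaling of a library, was 1.68, 0.764 and 0.503 in T cells, 0.690, 0.613 and 0.459 in DC and 0.780, 0.303 and 0.652 in TDC. Means were 0.981 ± 0.616, 0.587 ± 0.118 and 0.579 ± 0.247 (SD, n = 3), so the group difference rested on T cell replicate 1 and was smaller than the spread between T cell libraries. Without that library the T cell mean was 0.634. Within replicate numbers the T cell ratio was above that of DC in 3 of 3 and above that of TDC in 2 of 3. The 5 mitochondrial genes without reads are missing from the numerator in every library.

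All 8 tested mitochondrial genes had values below 0 in log2 fold change against T cells, and none passed the test. A gene passed, or was called, at an adjusted p under 0.05 by the quasi-likelihood test of edgeR, adjusted after Benjamini and Hochberg over all 14708 genes tested. The median log2 fold change of the 8 genes was -1.06 for DC against T cells and -0.90 for TDC against T cells, beside 0.08 and 0.14 over all genes tested. For TDC against DC the median was 0.17, beside 0.01. With edgeR 0 of the 8 genes were called higher and 0 lower in each comparison, 0 had an unadjusted p under 0.05, and 0 were called by DESeq2 or limma-voom. In DC against T cells the call rate over all genes was 15.4% higher and 8.41% lower. It was 21.8% and 11.2% for TDC against T cells, and 9.55% and 4.60% for TDC against DC. None of the 8 genes had libraries without overlap between 2 groups in any comparison. mt-Cytb was called lower in TDC against T cells with library size as the only scaling and without TDC replicate 1, and with that scaling the median for TDC against DC turned to -0.12.

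The gene of cytochrome b, mt-Cytb, the mitochondrial subunit of complex III, was at 5964, 5440 and 2346 CPM in T cells, 1841, 3351 and 1002 in DC and 4138, 850.9 and 1716 in TDC. T cell replicates 1 and 2 were the highest libraries, and T cell replicate 3 lay within the range of both other groups. The log2 fold change was -1.15 (SE 0.63, adjusted p = 0.223) for DC and -1.04 (SE 0.62, adjusted p = 0.233) for TDC, each against T cells. The complex I genes mt-Nd1, mt-Nd2, mt-Nd4 and mt-Nd5, which encode membrane subunits, had values of -1.28 to -1.01 for DC and -1.003 to -0.757 for TDC. The gene mt-Nd6, encoded on the opposite strand and overlapping mt-Nd5 by 14 bases, had -0.72 and -0.50. Catalytic subunit 1 of complex IV, mt-Co1, had the values nearest to 0 of the 8 genes, -0.48 (SE 0.63) and -0.29 (SE 0.63), with 4828, 1862 and 1122 CPM in T cells, 1953, 2562 and 1088 in DC and 3738, 844.6 and 1790 in TDC.

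The make-up of the mitochondrial reads varied less than their amount. mt-Co1 took 27.0%, 14.6% and 19.1% of the mitochondrial gene reads in T cells, 31.2%, 26.7% and 34.4% in DC and 29.2%, 31.4% and 31.8% in TDC. All 3 TDC libraries lay above all 3 T cell libraries, and T cell replicate 1 overlapped the DC range, at means of 20.2% ± 6.27, 30.8% ± 3.87 and 30.8% ± 1.40 (SD, n = 3). mt-Cytb took means of 38.6%, 32.0% and 31.5%. Reads of the mitochondrial ribosomal RNA genes mt-Rnr1 and mt-Rnr2, which are no members, were 0.490 to 0.530 times the reads of the mitochondrial members in T cells, 0.366 to 0.490 in DC and 0.408 to 0.463 in TDC.

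The nuclear genes as a group had medians slightly below 0 against T cells and near 0 between TDC and DC. For DC against T cells the median of the 89 tested genes was -0.29, with 22 above 0 and 67 below. For TDC against T cells it was -0.32, with 21 above and 68 below, and for TDC against DC 0.02, with 47 above and 42 below. The last changed sign with the scaling, at -0.25 with library size only, where the median of all genes itself moved by -0.285. Left-out libraries moved these medians as well. Without DC replicate 3 the median of DC against T cells was 0.01, and for TDC against T cells it was -0.92 without all replicate 1 libraries and 0.060 without all replicate 2 libraries.

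Few nuclear members were called. For DC against T cells edgeR called 0 higher and 0 lower, with 2 and 4 at an unadjusted p under 0.05 and 0 higher and 4 lower by DESeq2 and 0 higher and 3 lower by limma-voom. For TDC against T cells 3 were called higher (Sdhc, Cox4i2 and Cox6a2) and 1 lower (Ndufaf4). Cox4i2 and Cox6a2 passed the filter on low counts only through their TDC libraries, so they were tested only because TDC was high. For TDC against DC 2 were called higher (Sdhc and Cox4i2) and 0 lower, with 5 above and 5 below 0 at an unadjusted p under 0.05, and 2 lower by DESeq2 and 1 lower by limma-voom. With TMM scaling these counts lie well under the shares of all genes given above. Scaling mattered for the lower counts. With library size only, 28 of the 89 nuclear members were called lower in TDC against T cells, beside 3321 of all 14708 genes. That is a larger share of the members than of all genes, so under this scaling the order turned. Without DC replicate 2 edgeR called 6 nuclear members lower in DC. The smallest adjusted p of DC against T cells was 0.0524, for the complex I accessory subunit gene Ndufv3, at 86.9, 135 and 114 CPM in T cells and 36.7, 75.03 and 36.1 in DC.

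Counts of members whose libraries did not overlap, taken as shares of the 89 tested nuclear genes, were under the background too. In DC, 1 nuclear gene (Cox6b2) lay above and 6 (Ndufa10, Ndufv3, Ndufs3, Ndufv1, Atp5a1 and Atp5b) below every T cell library, of 89, where 21.8% and 17.9% of all genes did. In TDC, 6 (Ndufs1, Sdha, Sdhc, Cox4i2, Cox5a and Cox6a2) lay above and 9 (Ndufaf4, Ndufaf5, Ndufaf6, Ndufa10, Ndufa6, Cox7a2l, Atp5d, Atp5l and Atp5sl) below every T cell library, against 29.6% and 22.4%. In TDC against DC the count was 7 above (among them Ndufs1, Sdha, Sdhc, Cox4i2, Cox6a2 and Atp5a1) and 6 below (Ndufaf4, Ndufaf6, Ndufaf7, Cox6b2, Atp5l and Atp5sl), against 20.1% and 14.8%. Atp5a1 and Atp5b encode the catalytic ring of ATP synthase, and Ndufs1 carries iron-sulfur clusters of complex I. The members in these counts were listed after their values were seen, and Cox4i2 and Cox6a2 were among the tested genes only through their TDC libraries.

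**Figure D2:**
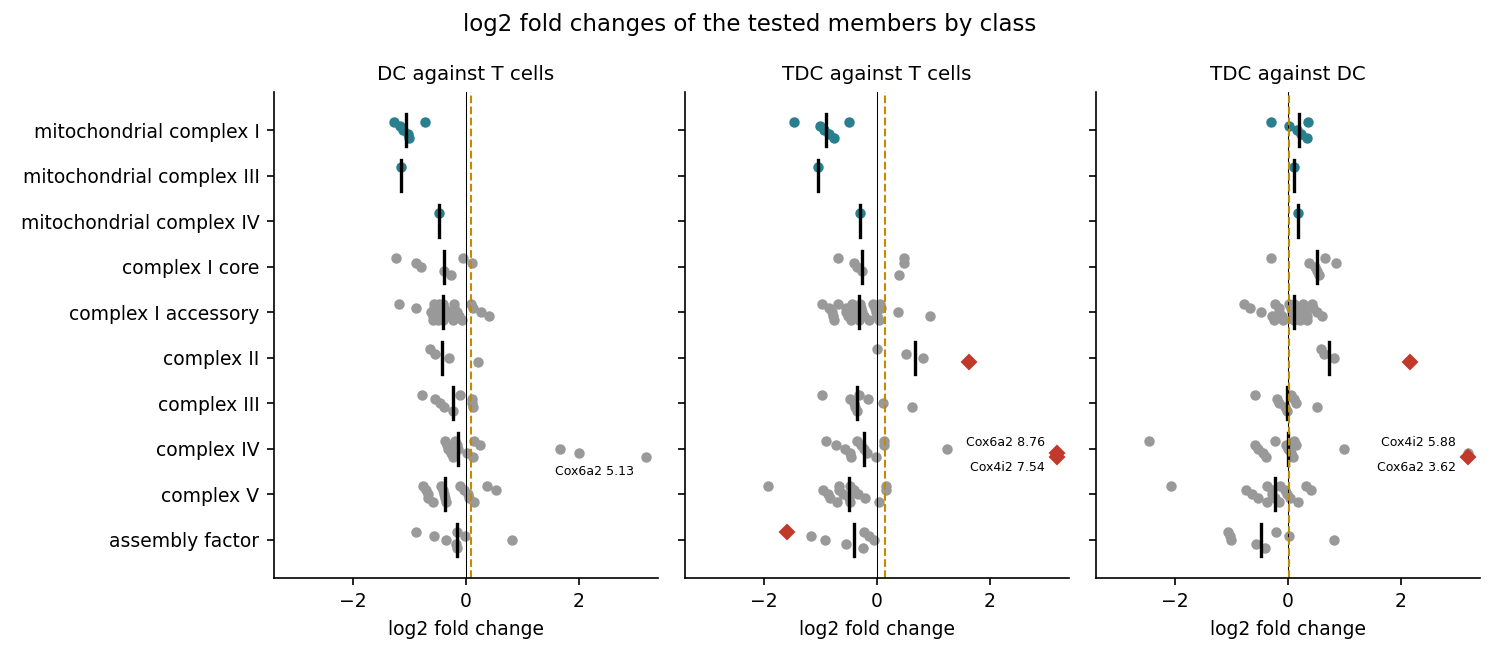
log2 fold changes of the 97 tested members by class for the 3 comparisons. Dots are genes, red diamonds those called by edgeR, black bars class medians, and the dashed line the median of all genes tested; values beyond the axis are drawn at its edge with their value. The median of the 4 complex II genes lies to the right of the other class medians in both comparisons of TDC, with Sdhc called in both.

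Complex II, the only complex without a mitochondrially encoded subunit, had a median of 0.67 in TDC against T cells, against medians of -0.50 to -0.23 for the other nuclear classes. Against DC its median was 0.73, beside -0.48 to 0.52 for those classes. Both medians over these 4 genes lie between members that did not pass. In each comparison 1 of the 4 genes was called higher, where 21.8% of all genes were against T cells and 9.55% against DC. Sdhc, which encodes a membrane anchor that binds heme and ubiquinone, was at 41.2, 66.0 and 47.8 CPM in T cells, 45.4, 34.1 and 26.8 in DC and 235, 149 and 94.9 in TDC. All 3 TDC libraries lay above all 6 others, and the TDC libraries differed among themselves by more than the controls did. Sdhc rose 3.09-fold in TDC against T cells (1.63 as log2 fold change, SE 0.39, adjusted p = 0.00973) and 4.50-fold against DC (2.17, SE 0.40, adjusted p = 0.00558). Against T cells the value dropped to 0.99 (adjusted p = 0.0423) when libraries were scaled by size alone. Group means were 51.6 ± 12.9 CPM in T cells, 35.5 ± 9.35 in DC and 160 ± 70.8 in TDC (SD, n = 3). The call against T cells ended without all replicate 1 libraries (adjusted p = 0.113), and the call against DC without those of replicate 1 (0.0558) or 2 (0.0579), fits that leave 2 libraries a group. GENCODE M21 places Sdhc at chr1:171127165-171150603 on the minus strand, and its last 300 mRNA bases shared 0% of their 50-base words with another gene.

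The other complex II genes did not pass. Sdha, the flavoprotein that oxidises succinate, was at 316.9, 364.4 and 309.7 CPM in T cells, 381.8, 189.4 and 238.8 in DC and 444.1, 533.9 and 447.3 in TDC. Each TDC library lay above each control library, with a log2 fold change of 0.52 (SE 0.31, adjusted p = 0.222) against T cells and of 0.81 (SE 0.31, adjusted p = 0.112) against DC, and scaling by library size alone moved the value against T cells to -0.08. The other membrane anchor gene, Sdhd, was at 145.5, 225.1 and 138.7 CPM in T cells, 157.2, 279.4 and 158.0 in DC and 472.1, 229.6 and 194.5 in TDC. Its groups overlapped (0.81, adjusted p = 0.158, against T cells; 0.59, adjusted p = 0.393, against DC). The iron-sulfur subunit gene Sdhb was at 167.1, 416.9 and 275.5 CPM in T cells, 156.2, 272.2 and 122.1 in DC and 407.8, 229.1 and 221.2 in TDC, with overlap between all groups and values of -0.00 and 0.64. Summed over the 4 genes, TDC libraries had 1559, 1141 and 958 CPM, T cells 671, 1072 and 772 CPM and DC 741, 775 and 546 CPM, so that TDC replicate 3 lay under T cell replicate 2.

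**Figure D3:**
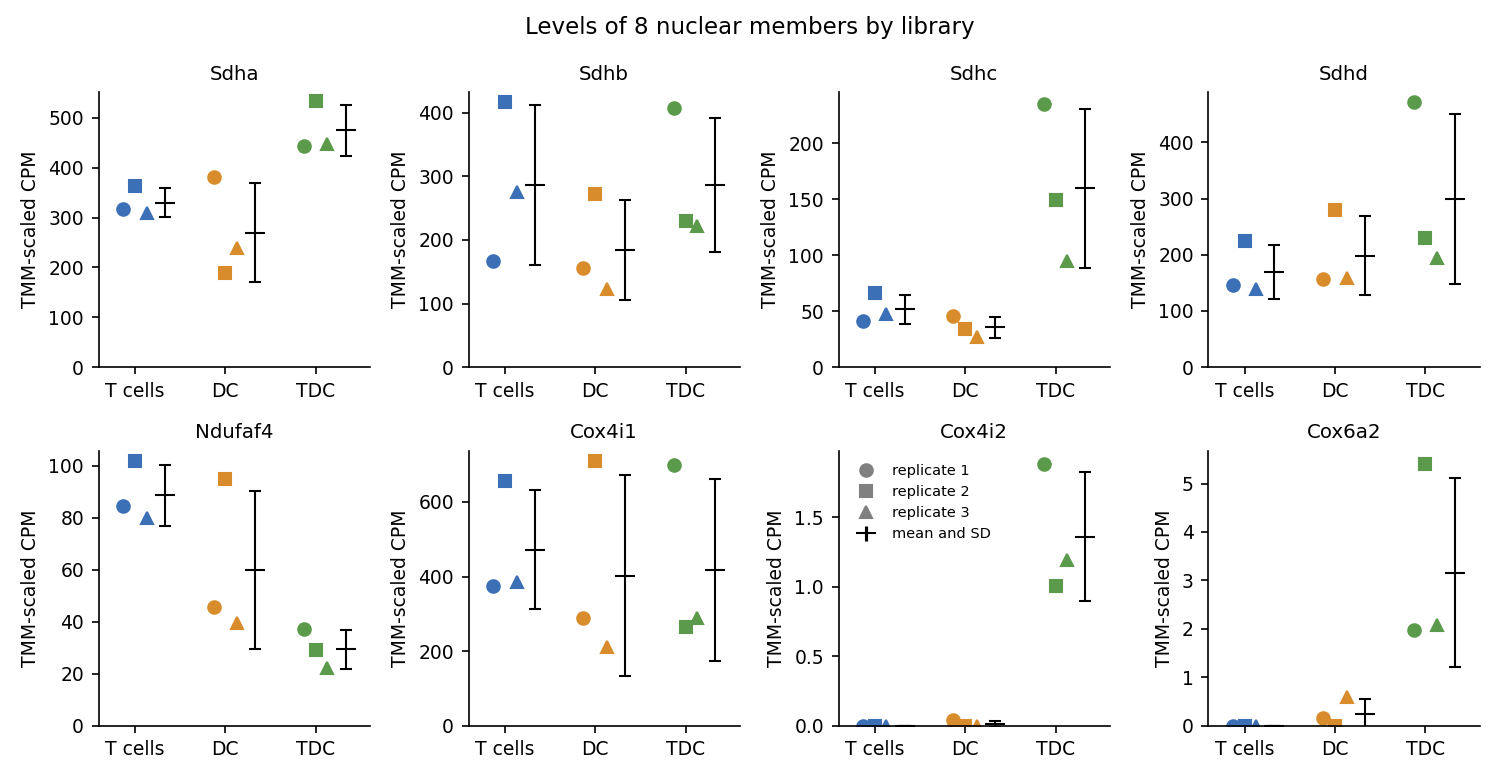
TMM-scaled CPM by library of the 4 complex II genes, Ndufaf4 and 3 complex IV isoform genes, with mean and SD over 3 libraries. Sdhc, Cox4i2 and Cox6a2 in TDC lie above all other libraries, Ndufaf4 in TDC below them, and Cox4i1 overlaps between all groups.

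The called genes of complex IV were tissue isoforms at low levels that passed the filter on low counts only through TDC, and no common isoform passed the test. Cox4i2, an isoform of subunit 4 known from lung and from cells at low oxygen (chr2:152754173-152765037, plus strand), had 0 reads in all T cell libraries, 1, 0 and 0 reads in DC and 21, 18 and 16 reads in TDC. In TDC it was at 1.88, 1.00 and 1.19 CPM, at least 23.2-fold higher than in T cells with 3 reads over the group as the floor (edgeR adjusted p = 0.00688). Against DC the ratio was 74.1 (95% interval 12.8 to 2979, counting error only; adjusted p = 0.0249). That call ended without the filter on low counts (0.0672), with the replicate number as a block (0.0794), without any 1 library of DC or TDC (0.0812 to 0.0951) and without the libraries of any 1 replicate number (0.0942 to 0.165). The call against T cells ended without replicate number 1 (0.0741) or 2 (0.0708).

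Cox6a2, the isoform of subunit 6a known from heart and skeletal muscle (chr7:128205435-128206387, minus strand), had 0 reads in all T cell libraries, 4, 0 and 10 reads in DC and 22, 97 and 28 reads in TDC. Its level in TDC, 1.97, 5.41 and 2.09 CPM, was at least 62.1-fold higher than in T cells (adjusted p = 0.00930), a call that ended without replicate number 1 (0.0681) or 2 (0.0557). Against DC the ratio was 14.2 and did not pass (adjusted p = 0.129), although no library overlapped. Set against the same floor, the 14 DC reads gave 4.39-fold the T cell level, with 0 reads in DC replicate 2. The difference did not pass (adjusted p = 0.0800).

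The ubiquitous partners of these isoforms overlapped between the groups. Cox4i1 was at 473 ± 160, 403 ± 269 and 417 ± 244 CPM in T cells, DC and TDC, and Cox6a1 at 261, 210 and 223 CPM. Cox6b1 was at 172, 187 and 188 CPM, while Cox6b2, an isoform known from testis, was at 0.703, 0.494 and 1.19 CPM in T cells, 2.30, 3.90 and 3.46 in DC and 0.180, 0.781 and 0.745 in TDC. All 3 DC libraries lay above the other 6 for Cox6b2, which passed neither against T cells (2.01 as log2 fold change, SE 0.90, adjusted p = 0.136) nor for TDC against DC (-2.47, SE 0.92, adjusted p = 0.104). Of the muscle isoforms, Cox7a1 had 4 reads in T cells, 33 in DC and 28 in TDC and was not tested, and Cox8b had 1 read, in TDC. Cox7b2, Cox8c and Ndufa4l2, isoforms of restricted or oxygen-dependent use, had no read in any library.

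The common forms of subunits 7a and 8 did not pass, with Cox7a2 at 127, 102 and 99.4 CPM and Cox8a at 187, 167 and 184 CPM in T cells, DC and TDC. Cox7a2l, which joins complexes III and IV in supercomplexes, was at 97.4, 147 and 116 CPM in T cells, 87.3, 136.5 and 54.5 in DC and 81.8, 54.4 and 57.5 in TDC. Every TDC library lay below every T cell library, with a log2 fold change of -0.90 (SE 0.37) that did not pass (adjusted p = 0.0914). Ndufa4, long listed under complex I and since placed in complex IV, was at 138, 140 and 151 CPM. Cox5a, a structural subunit named after its values were seen, was at 43.7, 106 and 58.2 CPM in T cells, 60.2, 149 and 38.04 in DC and 248, 136 and 108 in TDC, and did not pass against T cells (1.24, SE 0.55, adjusted p = 0.111).

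Complex I had no called subunit. Medians of its 7 core genes were -0.38 for DC against T cells, -0.27 for TDC against T cells and 0.52 for TDC against DC, and those of its 29 accessory genes -0.40, -0.31 and 0.11. Ndufa9, the accessory gene with the most reads, had means of 188, 126 and 160 CPM with all groups overlapping. Ndufa10, an accessory subunit of the membrane arm named after its values were seen, was at 156, 250.2 and 186.5 CPM in T cells, 92.4, 128 and 99.2 in DC and 141, 105 and 99.2 in TDC. Every T cell library lay above all 6 others, and neither difference passed (-0.89, SE 0.30, adjusted p = 0.0547 for DC; -0.78, SE 0.30, adjusted p = 0.0688 for TDC).

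The 8 assembly factors of complex I, proteins that help to build it and then leave, all had values below 0 in TDC against T cells, with a median of -0.40. Of all 89 tested nuclear members 68 lay below 0. Of the 8, 1 was called lower, a share near the 11.2% of all genes. For TDC against DC, 2 of the 8 lay above 0 and 6 below, and 0 were called. Ndufaf4 (chr4:24898083-24905001, plus strand), the assembly factor with the most reads, was at 84.4, 102 and 79.7 CPM in T cells, 45.6, 95.0 and 39.4 in DC and 37.2, 29.0 and 22.2 in TDC. TDC libraries were the lowest 3, and DC spanned the gap to T cells. Ndufaf4 fell by 1.59 on the log2 scale (SE 0.39, adjusted p = 0.0111) in TDC against T cells, from 88.6 ± 11.7 CPM to 29.5 ± 7.48 CPM (SD, n = 3), a call that ended without replicate number 1 (0.0572) or 3 (0.0593). The value was -2.22 when libraries were scaled by size alone. DC were at 60.0 ± 30.5 CPM, and TDC against DC did not pass (-1.03, SE 0.39, adjusted p = 0.112). Ndufaf6 was at 18.1, 35.8 and 37.45 CPM in T cells and 16.1, 10.4 and 14.0 in TDC (-1.18, SE 0.45, adjusted p = 0.0674).

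Complexes III and V had no called member. Complex III had medians of -0.23, -0.36 and -0.02 for DC and TDC, each against T cells, and for TDC against DC. Its core protein gene Uqcrc1, the member of complex III with the most reads, had means of 449, 308 and 339 CPM in T cells, DC and TDC, and Cyc1, cytochrome c1, 238, 172 and 186 CPM, with overlap between all groups for both. Complex V had medians of -0.38, -0.50 and -0.23. Atp5b, its catalytic subunit, had the most reads of all nuclear members, at 1177, 1466 and 1442 CPM in T cells, 1087, 1055 and 952 in DC and 1450, 1027 and 1038 in TDC. All DC libraries lay below all T cell libraries (-0.40, SE 0.27, adjusted p = 0.340), while TDC overlapped both. Its c-ring, encoded by 3 genes for the same mature protein, had means of 104, 69.5 and 57.0 CPM for Atp5g1, 12.8, 11.9 and 9.19 CPM for Atp5g2 and 293, 184 and 231 CPM for Atp5g3. Atp5g2 shared 98.4% of the 50-base words in its last 300 bases with other genes, so its count is uncertain, as are those of Cox7c (99.2%) and Atp5l (70.1%). Atp5sl, placed here by its symbol and named after its values were seen, encodes an assembly factor now called Dmac2 and was at 51.6, 41.7 and 50.7 CPM in T cells and 30.0, 29.0 and 29.4 in TDC (-0.70, SE 0.28, adjusted p = 0.0772).

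Nuclear respiratory genes are known targets of the factors NRF1, YY1 and the ETS family, so promoters were searched for their motifs. RefSeq (GRCm38.p6) gave the 250 bases before to the 50 after the start for 77 of the 94 nuclear members, matched by symbol. The NRF1 motif GCGCATGC on either strand was found in 12 of the 77 (15.6%), against 3.05% of all 27025 genes and 5.94% of the 10033 tested genes with a promoter. The YY1 motif AAGATGGC was found in 12 (15.6%, against 3.19% and 5.29%) and the ETS motif CCGGAAGT in 5 (6.49%, against 4.31% and 9.15%). The promoter of the called gene Ndufaf4, chr4:24897833-24898132 on the plus strand, held 3 matches to the NRF1 motif, 2 of them overlapping on opposite strands, shown in capitals:
Ndufaf4 promoter: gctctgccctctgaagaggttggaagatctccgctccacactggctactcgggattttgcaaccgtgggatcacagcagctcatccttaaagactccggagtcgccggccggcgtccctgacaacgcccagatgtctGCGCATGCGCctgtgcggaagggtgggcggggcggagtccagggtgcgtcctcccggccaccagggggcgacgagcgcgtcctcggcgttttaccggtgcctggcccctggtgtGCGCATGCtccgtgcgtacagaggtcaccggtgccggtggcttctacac
A match is a run of letters and no measured binding site.

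Within a population the libraries differed in most members at once. Of 87 nuclear genes with reads in all T cell libraries, replicate 2 was the highest library for 80, in DC replicate 2 was the highest for 81 of 87, and in TDC replicate 1 for 85 of 89. The ratio of the highest to the lowest library had a median over nuclear genes of 1.73 in T cells, 2.92 in DC and 2.31 in TDC. Over the 7 mitochondrial genes with reads in every library it was 2.97, 3.34 and 4.86. The highest library was not always the same for both genomes: T cell replicate 1 was the highest for 7 of 7 mitochondrial genes and the lowest for 55 of 87 nuclear ones.

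In some pairs of libraries this spread went with mRNA length. Between DC replicates 2 and 3 the median log2 difference was 1.82 over 48 nuclear members with an mRNA under 1000 bases and 1.19 over 31 members of 1000 to 2000 bases. It was 1.43 over the 732 genes of all kinds under 1000 bases, 0.73 over the 2592 of 1000 to 2000 bases and -0.23 over the 8568 longer ones. Between TDC replicates 1 and 2 the members had 1.23 and 0.92, and all genes 1.02, 0.65 and -0.41. Between T cell replicates 2 and 3 the members had 0.68 and 0.60, and all genes 0.56, 0.28 and 0.00. Only 9 members were longer than 2000 bases, with medians of 0.37, 0.43 and 0.35 for these pairs. Across the 88 members with a length, Spearman's rho of the difference with length was -0.59, -0.46 and -0.20, a description over genes that share their libraries. For the first minus the second library, rho was also -0.48 for TDC replicates 1 and 3, -0.39 for DC replicates 1 and 3 and 0.42 for DC replicates 1 and 2. The remaining pairs showed less of it, with rho of -0.04 between T cell replicates 1 and 3, 0.15 between T cell replicates 1 and 2 and -0.06 between TDC replicates 2 and 3. For the log2 fold changes between populations, rho with length over the 88 members was -0.20 in DC against T cells, 0.10 in TDC against T cells and 0.15 in TDC against DC. Medians of members under 1000 bases were -0.22, -0.35 and 0.01 in these comparisons, and those of 1000 to 2000 bases -0.27, -0.32 and -0.04. The 9 longer members, with Sdhc and Ndufaf4 among them, had -0.41, 0.03 and 0.43. Over all genes, from short to long, medians were -0.25, -0.21 and 0.23 in DC against T cells. They were -0.32, -0.11 and 0.36 in TDC against T cells, and -0.08, 0.04 and 0.07 in TDC against DC. The part of length in the calls was not tested.

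**Figure D4:**
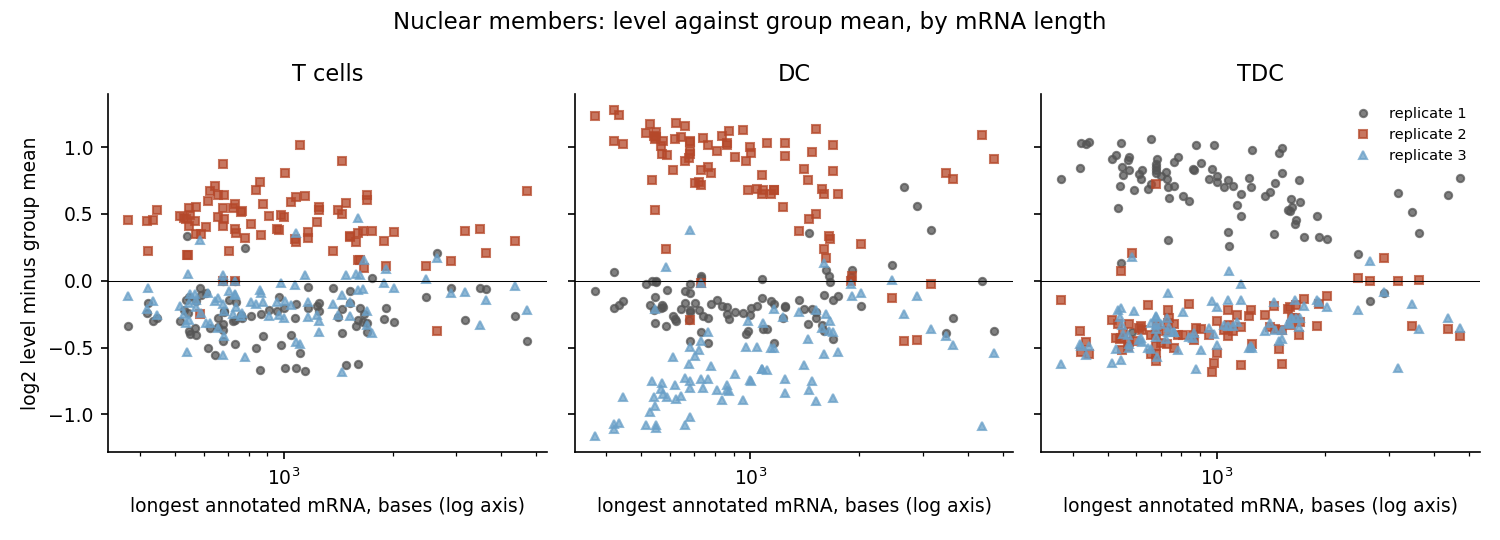
For each of the 88 tested nuclear members with an annotated mRNA, the log2 level in a library minus the mean of its group, against mRNA length in bases (log axis), by population and replicate number. The length is that of the annotated mRNA ranked best as the main form of the gene, and of the longest where ranks were equal, although the axis label says longest. In DC, replicate 2 lies above and replicate 3 below the group mean for most short mRNAs, and in TDC replicate 1 lies above it.

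Other genes of mitochondrial function were counted by lists, given as higher and lower of those tested, first for DC and then for TDC against T cells, and last for TDC against DC. The list of 38 further assembly factors and electron carriers had 0 and 1, 2 and 2, and 1 and 1, with medians of -0.30, -0.15 and 0.27. Over all genes 15.4% and 8.41%, 21.8% and 11.2%, and 9.55% and 4.60% were called, so the calls of this list lay under the background in each case. Coa5, an assembly factor of complex IV, rose in TDC against T cells (1.92 as log2 fold change, SE 0.46, adjusted p = 0.00910; 37.6 ± 12.0 and 142 ± 54.3 CPM). Tmem126b, an assembly factor of complex I, rose against both T cells (1.18, adjusted p = 0.0332) and DC (1.48, adjusted p = 0.0256). Sdhaf1, which helps to load iron-sulfur clusters into complex II, went the other way, from 22.8 ± 7.77 CPM in T cells and 29.8 ± 14.1 in DC to 8.39 ± 3.46 in TDC (-1.44, adjusted p = 0.0444; -1.83, adjusted p = 0.0330). Other complex II assembly genes of the list did not pass in TDC against T cells. They were Sdhaf2 (-0.13, adjusted p = 0.794), Sdhaf3 (-0.84, adjusted p = 0.273) and Sdhaf4 (0.32, adjusted p = 0.746).

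Genes that keep and transcribe mitochondrial DNA had, of 17, 0 and 1, 1 and 2, and 1 and 0 called, with medians of -0.73, -0.46 and 0.07. Over all genes 15.4% and 8.41%, 21.8% and 11.2%, and 9.55% and 4.60% were called. The 2 lower in TDC against T cells are a share near the 11.2% of all genes. Tfam, which packages and transcribes the mitochondrial genome, fell from 95.5 ± 7.35 CPM in T cells to 48.0 ± 14.2 in DC (-0.99, SE 0.31, adjusted p = 0.0408) and 33.7 ± 4.99 in TDC (-1.50, SE 0.32, adjusted p = 0.00455). Polg2, the accessory subunit of the mitochondrial DNA polymerase, fell in TDC (-1.67, adjusted p = 0.0329). Mgme1, a mitochondrial exonuclease, rose in TDC against both T cells (1.34, adjusted p = 0.0112) and DC (1.32, adjusted p = 0.0236). Of 18 genes of mitochondrial RNA processing and stability, 2 were called, both lower in TDC against T cells, again a share near the 11.2% of all genes. They were Trmt10c, a subunit of mitochondrial RNase P (-1.13, adjusted p = 0.0228), and Fastk (-0.82, adjusted p = 0.0488). The third named gene of that list, Ptcd3, had -0.84 (adjusted p = 0.0533).

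Regulators of mitochondrial biogenesis had, of 10, 0 and 2, 0 and 1, and 2 and 0 called, with medians of 0.12, 0.38 and -0.22. The shares over all genes were 15.4% and 8.41%, 21.8% and 11.2%, and 9.55% and 4.60%. Ppargc1b, a coactivator of respiratory genes, was at 7.31 ± 0.821 CPM in T cells, 0.189 ± 0.269 in DC and 20.3 ± 6.03 in TDC. It fell in DC against T cells (-5.08, SE 0.96, adjusted p = 0.00334), was higher in TDC than in DC (6.55, SE 1.02, adjusted p = 0.00234) and did not pass in TDC against T cells (1.47, adjusted p = 0.184). Nrf1, whose protein binds the motif searched above, was at 90.7 ± 12.3, 69.4 ± 11.4 and 41.6 ± 10.1 CPM and fell in TDC against T cells (-1.12, SE 0.31, adjusted p = 0.0176). Myc, a growth regulator, was at 120 ± 37.0, 57.1 ± 7.65 and 157 ± 50.1 CPM, lower in DC than in T cells (-1.08, adjusted p = 0.0440) and higher in TDC than in DC (1.46, adjusted p = 0.0186).

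The citric acid cycle, which shares complex II with the chain, had 3 and 0, 1 and 0, and 0 and 1 of 14 called, with medians of 0.09, 0.48 and 0.08. The shares over all genes were 15.4% and 8.41%, 21.8% and 11.2%, and 9.55% and 4.60%. Mdh2, mitochondrial malate dehydrogenase, was at 457 ± 144 CPM in T cells, 1586 ± 794 in DC and 402 ± 107 in TDC, higher in DC than in T cells (1.80, adjusted p = 0.00997), and TDC lay below DC (-1.98, adjusted p = 0.0108). Dlst, a subunit of the 2-oxoglutarate dehydrogenase complex, rose in TDC against T cells (0.96, adjusted p = 0.0253) and in DC against T cells (0.87, adjusted p = 0.0491). Idh3b, a subunit of isocitrate dehydrogenase, had -0.93 (adjusted p = 0.0526) in TDC against T cells. Of 21 genes of import and the outer membrane 1 was called, a share under the 21.8% of all genes called higher in TDC against T cells. It was Vdac1, the outer membrane channel, at 61.0 ± 8.86 CPM in T cells and 110.5 ± 3.46 in TDC (0.86, adjusted p = 0.0300). Hspa9, a matrix chaperone, and Timm44 of the inner membrane import motor did not pass, with 0.84 (adjusted p = 0.0937) in TDC against DC and -0.84 (adjusted p = 0.0830) in TDC against T cells.

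Genes of mitophagy, the removal of mitochondria by autophagy, had 1 and 1, 4 and 0, and 4 and 0 of 9 called, with medians of 0.48, 1.17 and 0.97. Over all genes 15.4% and 8.41%, 21.8% and 11.2%, and 9.55% and 4.60% were called. Sqstm1, an autophagy receptor, was at 462 ± 27.6 CPM in T cells, 676 ± 45.3 in DC and 1403 ± 404 in TDC (1.602, adjusted p = 0.00236 against T cells; 1.05, adjusted p = 0.0377 against DC). Optn, another receptor, was at 1.80 ± 0.630, 3.22 ± 3.17 and 52.9 ± 4.53 CPM and rose in TDC against T cells (4.87, SE 1.04, adjusted p = 0.00515) and DC (4.04, adjusted p = 0.0221). Park2, which encodes the ubiquitin ligase parkin, had 0 reads in T cells, 5 in DC and 192 in TDC, at least 81.1-fold higher in TDC than in T cells (adjusted p = 0.00274) and higher than in DC (5.71, SE 1.27, adjusted p = 0.0187). It passed the filter on low counts only through its TDC libraries, so it was tested only because TDC was high. Its calls are among the 4 higher in each comparison of TDC. The mitophagy genes are also used outside mitochondria or in other cell types, and the macrophage markers given above move with the same libraries, whose part here was not tested.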

How the data were processed

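RNA had been extracted with a column kit and sequenced as Lexogen stranded QuantSeq libraries, per the labels, a method that reads the 3′ ends of polyadenylated RNA. Raw counts of reads, as whole numbers for each gene and library, are what the authors deposited; per the submitters' processing notes FastQC, MultiQC, Trimmomatic, STAR and featureCounts were used, with no versions or settings. Those notes name the human build hg38 for these mouse samples, so the build, annotation and strand setting of the counting are uncertain, and coordinates here come from GENCODE M21 (GRCm38), not from the authors' files.

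Counts were tested with edgeR 4.0.16 (R 4.3.3): filterByExpr (minimum count 10, minimum total 15), TMM, a robust quasi-likelihood fit of all 9 libraries by group (6 residual degrees of freedom, common coefficient of variation 0.588) and Benjamini-Hochberg adjustment over 14708 genes at 0.05. The standard error is the log2 fold change divided by the square root of its F statistic. DESeq2 1.42.0 and limma-voom (limma 3.58.1) served as alternatives, with other scalings, filters, pairs of groups, a replicate block and left-out libraries. The fit was also run on simulated counts with 200 changed genes. These were drawn independently for each gene, without the shifts shared by many genes that these libraries show, so they do not test the fit under such shifts. Replicate libraries differed by 67.9 to 275 in chi-square per degree of freedom, so none was a repeat of another. Of the 107 members 106 were found in GENCODE, and promoters are from RefSeq (GRCm38.p6). Floors use 3 reads, and floors and intervals cover counting error only. A fold given as at least sets the summed reads of the higher group against the floor of the lower group. It allows neither for counting error in the higher group nor for the spread between libraries, so single libraries can lie below it. In all, 26 rows of the table carry dates in place of symbols.

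The members and the 16 gene lists (173 genes, 171 in the table) were chosen with earlier results of these data known. Named were all mitochondrial genes, the member with the most reads and up to 4 called members in each class, isoform families, the Sdh genes, Cyc1 and up to 3 genes of each list by smallest adjusted p; others are marked in the text. Some genes that fall under this rule are not reported here. No sample was left out.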

Additional observations from a re-analysis of the deposited data

How the results depend on the processing

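Each comparison was repeated under 22 settings. Of the nuclear members called lower in DC against T cells (0), the count was 2 with DESeq2 size factors, upper-quartile factors, TMM without the mitochondrial rows or no filter, 3 with limma-voom, 4 with the DESeq2 Wald test and 5 with library size only. In TDC against T cells (3 higher, 1 lower) it was 1 higher and 2 lower with a 10 CPM filter, and 3 lower with only that pair of groups, 4 with the Wald test, 5 with upper-quartile factors and 28 with library size only, which also gave a nuclear median of -0.97 and called 1 mitochondrial gene (mt-Cytb). In TDC against DC (2 higher, 0 lower) it was 1 higher with no filter or the 10 CPM filter, and 1 lower with limma-voom, 2 with the Wald test and 3 with library size only. Over all genes, library size only called 1886 lower in DC and 3321 in TDC against T cells; in TDC against DC the Wald test called 1234 lower and limma-voom 1024. With library size only the median of all genes moved by -0.290, -0.607 and -0.285 and the higher share of calls from 64.7% to 50.2%, from 66.0% to 42.9% and from 67.5% to 53.1% (in the order used above). Without mt-Cytb the mitochondrial to nuclear ratio was 0.620 in T cells, 0.400 in DC and 0.396 in TDC. With means of log2(CPM + 1) in place of sums, mitochondrial minus nuclear was 2.70 ± 0.94 in T cells, 2.12 ± 0.38 in DC and 2.11 ± 0.65 in TDC.

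Leaving out libraries gave 0 to 1 nuclear members higher and 0 to 6 lower in DC against T cells (the extremes without DC replicate 2), with 1283 to 2492 and 552 to 1384 of all genes. For TDC against T cells it gave 0 to 4 higher and 0 to 4 lower, a nuclear median of -0.92 to 0.060, 0 to 1 mitochondrial genes lower (1 without TDC replicate 1), and 1984 to 3585 and 652 to 1945 of all genes. For TDC against DC it gave 0 to 2 nuclear members higher, and 548 to 1365 and 81 to 611 of all genes. Of the 93 results of 31 named members tested, the 6 calls were each lost under some setting (20 losses over all settings), 12 other results gained a call (17 gains), and no called value changed sign. Over all settings, 1995 values kept their status as called or not called, and 183 of these changed sign.

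Libraries with the same number share a code and a pool size, but the labels do not say what the code marks, so the number was not taken to pair the samples. Deviations of libraries with the same number correlated at -0.384 to 0.224, and mt-Nd3, at 0 in all replicate 2 libraries, is a further hint from the data. With the replicate block 1 nuclear member (Sdhc) was called higher in TDC against DC, as Cox4i2 had an adjusted p of 0.0794, and 431 of all genes were lower. Cox4i2, Cox6a2, Cox7a1 and mt-Nd3 had under 250 reads each, which limits the counting precision of their values.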
